A study of Mus musculus with 4 samples.

Results

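The glucocorticoid and progesterone stress-response genes described here are Fkbp5, Zbtb16, Sgk1, Tsc22d3, Ddit4, Mt1, Mt2 and Hsd11b1. They were taken by symbol from gene tables of mouse endometrium, the inner lining of the uterus, and make up 8 of the 28545 genes listed. Polyadenylated RNA was sequenced in 4 libraries. The first pair is titled SMAD7 Cre+/- and carries the treatment label CKO; below they are the Cre-labelled libraries. The control pair is titled SMAD7fl/fl and carries the treatment label blank; below they are the floxed-labelled libraries. In both pairs the Smad7 allele derives from mouse eggs injected with a guide RNA, Cas9 mRNA and a donor carrying loxP sites, the targets that Cre recombinase joins to delete the DNA between them. All mice were in proestrus, the stage of the cycle just before ovulation. The promoter that drives Cre, the deleted exons, the strain and the ages of the mice were not stated in the labels read here, and the labels do not say whether each library is 1 animal. P-values therefore measure the spread between libraries, which may be technical.

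Glucocorticoid and progesterone act through related nuclear receptors, encoded by Nr3c1 and Pgr, which leave a chaperone complex on binding hormone and recognise the same palindromic DNA element. Their shared targets include the receptor co-chaperone Fkbp5, the zinc finger repressor Zbtb16 (PLZF), the leucine zipper protein Tsc22d3 (GILZ), the kinase Sgk1 and the mTORC1 inhibitor Ddit4 (REDD1). The metallothioneins Mt1 and Mt2 bind zinc and copper and answer both to glucocorticoid and to metals, which act through the transcription factor MTF1. Hsd11b1 stands upstream of all of these, since its enzyme regenerates active glucocorticoid inside the cell. In the uterus Zbtb16, Fkbp5 and Sgk1 are known as progesterone-responsive genes of the endometrium.

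Total counts ran from 17444368 to 22950532 per library, so that 3 counts, taken as the floor, equal 0.127 to 0.173 CPM (counts scaled to a common depth, with TMM factors from edgeR). Smad7, the targeted gene, stood at 228 and 154 CPM in the Cre-labelled libraries, against 34.3 and 36.8 CPM in the floxed-labelled pair. Its Cre-labelled values lay above (edgeR adjusted p = 0.0982), against what the label CKO would give, so every direction below follows the labels. Gene counts do not show which exons were read, so a deletion of part of Smad7 cannot be seen in them, and whether the labels of the pairs are exchanged was not tested; if they are, every direction turns round. The floxed-labelled libraries were unlike each other, with a biological coefficient of variation of 0.401, against 0.163 between the Cre-labelled pair and 0.389 to 0.424 between libraries of different labels. Stromal, epithelial and smooth muscle markers were all present. Summed smooth muscle markers stood at 11177 and 9641 CPM in the Cre-labelled libraries, against 6711 and 5517 CPM in the floxed-labelled pair. Lymphocyte markers summed to 475 and 515 against 945 and 1190 CPM. Most of this was Jchain, at 450 and 493 against 859 and 1103 CPM. The Cre-labelled libraries lay wholly below for all 9 lymphocyte markers tested, where 23.6% of all tested genes did so. Mesothelial markers summed to 271 and 212 CPM in the Cre-labelled libraries, against 194 and 115 CPM. Of 7 tested, 6 were higher at an unadjusted p under 0.05 in edgeR, where 7.3% of all tested genes were. Of the 6, Krt14 and Bnc1 reached the filter on mean FPKM (explained below) only through their Cre-labelled values. Krt14 averaged 3.52 against 0.0404 FPKM and Bnc1 1.84 against 0.406 FPKM. Krt14 was uneven, with 236 and 8 counts in the Cre-labelled libraries. Ovary and oviduct markers summed to 355 and 996 CPM, against 110 and 227 CPM. Of these sums, Ovgp1 alone gave 201 and 869 against 1.7 and 86.8 CPM. Foxl2 stood at 65.7 and 46.9 against 54.7 and 56.2 CPM. Of 6 tested, 2 were higher at the same threshold, and the oocyte gene Zp3 was at 0 throughout. Of the 2, Hsd3b1 reached the filter only through its Cre-labelled values. The part of such cells in the results below was not tested, and in bulk tissue fewer cells of a type and less RNA per cell cannot be told apart.

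Of the 8 genes, 7 had a mean FPKM (counts scaled by exon length and by depth) of at least 1 and were tested among 13513 genes. With the quasi-likelihood test of edgeR, 0 of the 7 and 0 of all tested genes had an adjusted p under 0.05; without adjustment, 987 genes were higher and 889 lower at that threshold. Zbtb16 was the single gene of the 7 that was higher at an unadjusted p under 0.05, where 7.3% of all tested genes were. Mt1 was the single gene that was lower, where 6.58% of all were. The Cre-labelled libraries lay wholly above the floxed-labelled pair for Zbtb16, Sgk1 and Hsd11b1, where 24.7% of all tested genes did so. They lay wholly below for Mt1, where 23.6% did so. For Fkbp5, Tsc22d3 and Ddit4 the groups overlapped. With 1 library left out, more of all tested genes do not overlap: 42.8% lay wholly above and 43.2% wholly below without floxed replicate 1, and 39.9% and 40.4% without floxed replicate 2. Without Cre replicate 1 the shares were 33.1% and 33.5%, and without Cre replicate 2 they were 31.8% and 32.1%. Without adjustment, 2 of the 7 were higher and 1 lower when low genes were not filtered out, where 7.92% and 7.41% of genes were. A mean FPKM of at least 5 kept Sgk1, Tsc22d3, Ddit4 and Mt1, but not Zbtb16, Fkbp5 or Hsd11b1. Of those kept, 0 were higher and 1, Mt1, was lower, where 6.43% and 6.18% of genes were. Adjusted, 0.0119% of genes were higher in that setting. With floxed replicate 1 left out, 2 of the 7 were higher and 1 lower, where 22.3% and 19.4% of genes were. With floxed replicate 2 left out, 3 were higher and 1 lower, where 15.4% and 15.7% were. With Cre replicate 1 left out, 0 were higher and 0 lower, where 2.7% and 2.17% were, and with Cre replicate 2 left out 1 was higher and 0 lower, where 2.58% and 2.0% were. The median log2 fold change of the 7 was 0.37, beside -0.033 over all genes tested. An exact permutation test of 2 against 2 libraries cannot go below p = 0.333 for any single gene.

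**Figure D1:**
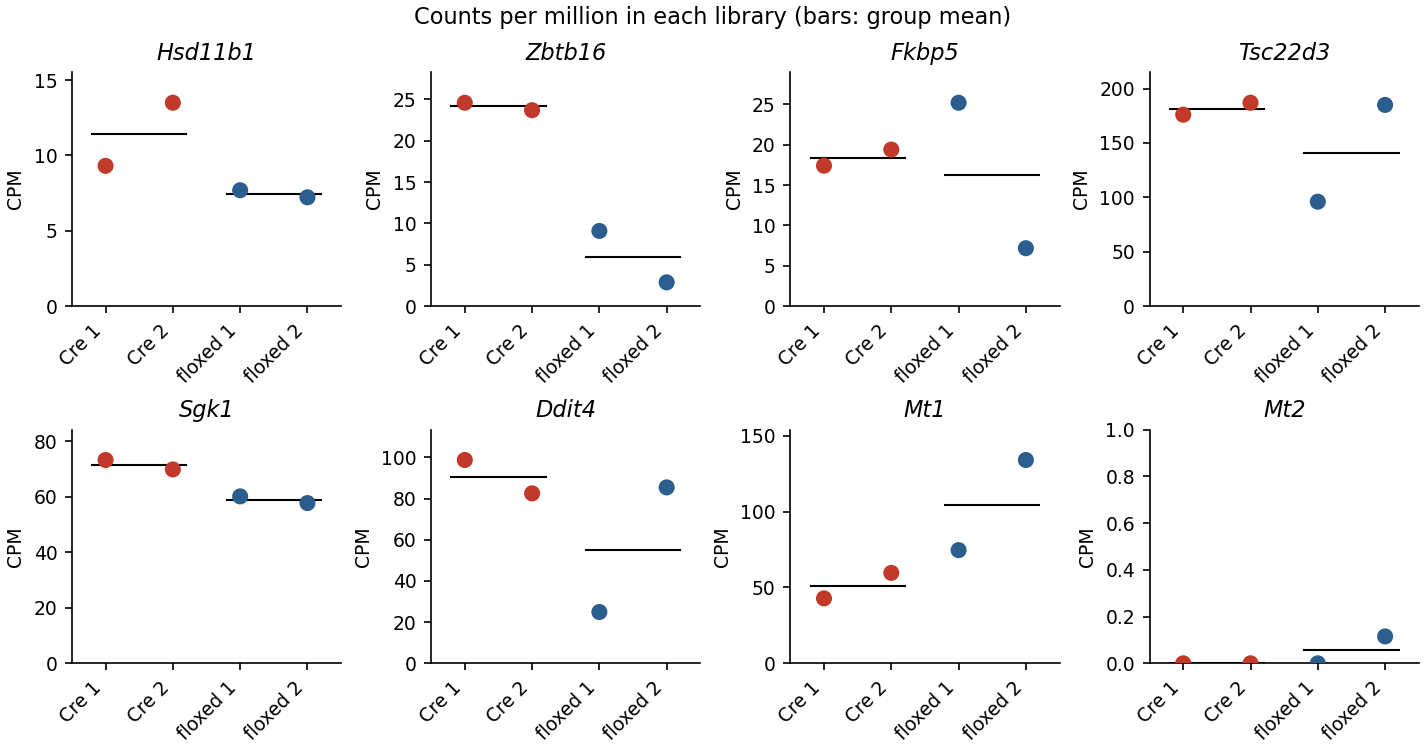
CPM (vertical axis, from 0) of each of the 8 genes in the 4 libraries, Cre in red and floxed in blue, with bars at the mean of each pair. Fkbp5 and Zbtb16 are lowest in floxed replicate 2, Tsc22d3 and Ddit4 are lowest in floxed replicate 1, and Mt2 is at or next to 0 throughout.

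Hsd11b1, the enzyme that makes active glucocorticoid from its inert keto form, was expressed at a low level. Its CPM was 9.31 and 13.5 in the Cre-labelled libraries, against 7.69 and 7.22 in the floxed-labelled pair. Both Cre-labelled values were above both floxed-labelled ones, by a log2 fold change of 0.61 ± 0.35 (SE), which did not pass (edgeR adjusted p = 0.487). The spread was on the Cre side, where the higher value was 1.45 times the lower. Hsd11b1 spans 193221634 to 193264075 of chromosome 1 on the minus strand of GRCm38. Adipocytes are a known site of Hsd11b1 expression, and 10 of 10 adipocyte markers were detected, with summed levels of 252 and 477 CPM in the Cre-labelled libraries and 543 and 284 CPM in the floxed-labelled pair. The part of adipocytes in these values was not tested.

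The opposing enzyme Hsd11b2, which inactivates glucocorticoid, differed more. It stood at 412 and 390 CPM in the Cre-labelled libraries, against 136 and 110 CPM in the floxed-labelled pair, a log2 fold change of 1.71 ± 0.25 (SE; edgeR adjusted p = 0.106). The groups were well apart, with both pairs tight, and the difference passed an adjusted p of 0.05 in 4 of 12 other settings, namely DESeq2, no filter on low genes and either floxed library left out. Per exon length, Hsd11b2 stood at 222 and 211 FPKM in the Cre-labelled libraries and 75.6 and 57.4 FPKM in the floxed-labelled pair. Hsd11b1 stood at 2.17 and 3.17 against 1.86 and 1.63 FPKM. Hsd11b2 thus had the higher level of these 2 enzymes in each of the 4 libraries. H6pd, which supplies Hsd11b1 with its cofactor NADPH, averaged 154 ± 29.4 CPM in the Cre-labelled libraries and 132 ± 2.07 CPM in the floxed-labelled pair (SD, n = 2 each), a difference that did not pass (edgeR adjusted p = 0.694). Among 8 tested genes of steroid supply and breakdown, the median log2 fold change was 0.23. Without adjustment, edgeR put 2 of the 8 higher and 0 lower at p under 0.05, where 7.3% and 6.58% of all tested genes were. The higher ones were Hsd11b2 and Abcb1b, a drug and steroid efflux pump. Abcb1b averaged 12.1 ± 0.866 against 6.77 ± 0.337 CPM. At 1.5 against 0.842 FPKM, it reached the filter only through its Cre-labelled values. Among the ovarian markers, Star, which carries cholesterol to its first cleavage, stood at 30.9 and 25.1 CPM in the Cre-labelled libraries, against 8.84 and 9.11 CPM in the floxed-labelled pair (edgeR adjusted p = 0.114). Hsd3b1, which makes progesterone from pregnenolone, had 77 and 63 counts in the Cre-labelled libraries, against 0 and 0 in the floxed-labelled pair. Cyp11a1, the side chain cleavage enzyme, had 53 and 62 counts against 2 and 0. Other markers of the list did not follow: of 6 tested, the groups overlapped for 3, namely Foxl2, Inha and Pax8. The Cre-labelled libraries lay wholly above for 3, where 24.7% of all tested genes did so. Of these 3, Hsd3b1 reached the filter only through its Cre-labelled values, at 2.02 against 0 FPKM. The part of ovarian tissue in the levels of the stress-response genes was not tested. Akr1c14, a reductase of the progesterone breakdown pathway, was uneven in the floxed-labelled libraries at 38.5 and 309 CPM, beside 454 and 552 CPM in the Cre-labelled pair.

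**Figure D2:**
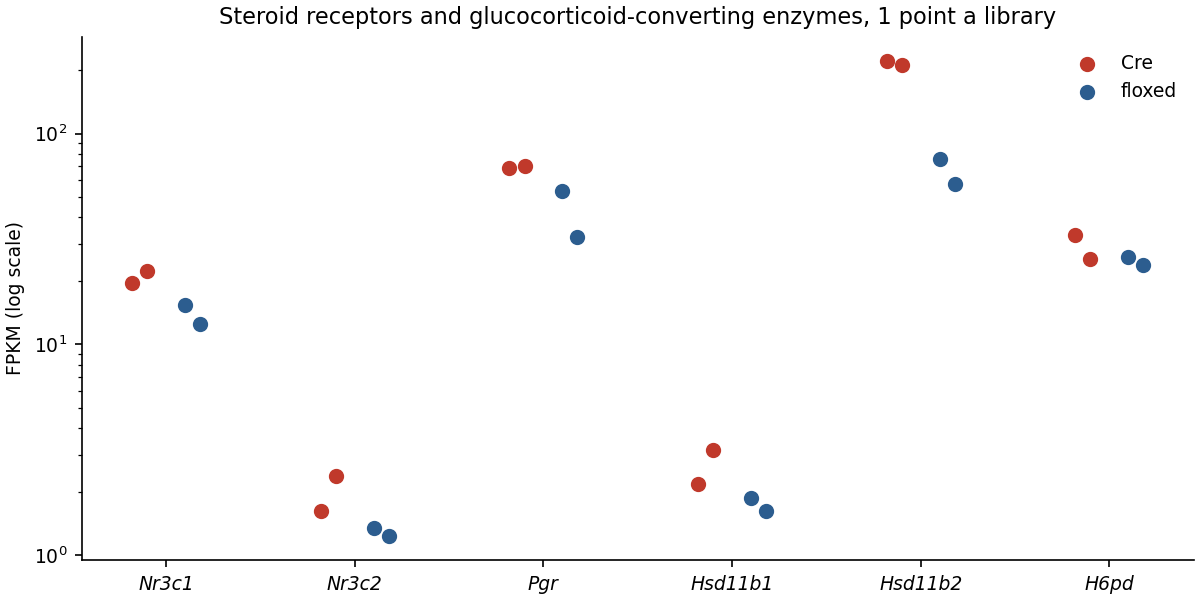
FPKM on a log axis of the receptor genes Nr3c1, Nr3c2 and Pgr and of Hsd11b1, Hsd11b2 and H6pd, 1 point a library, with Cre in red to the left of floxed in blue. Hsd11b2 has the highest level in the Cre-labelled libraries (222 and 211 FPKM) and Nr3c2 and Hsd11b1 have the lowest levels.

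Nr3c1 and Pgr had Cre-labelled values above both floxed-labelled ones. Nr3c1, the glucocorticoid receptor, averaged 161 ± 14.3 CPM in the Cre-labelled libraries and 108 ± 10.4 CPM in the floxed-labelled pair (SD, n = 2 each; edgeR adjusted p = 0.338). Pgr, the progesterone receptor, stood at 590 and 601 CPM in the Cre-labelled libraries, against 448 and 287 CPM in the floxed-labelled pair (edgeR adjusted p = 0.416). Both receptor genes were lower in floxed replicate 2 than in floxed replicate 1. Of 20 tested genes of receptors, chaperones and coregulators, edgeR put 4 higher and 0 lower at p under 0.05 without adjustment. Of all tested genes, 7.3% were higher and 6.58% lower. The Cre-labelled libraries lay wholly above for 15 of the 20, where 24.7% of all tested genes did so. The median log2 fold change of the 20 was 0.47. Nrip1, a corepressor of nuclear receptors, averaged 203 ± 17.6 against 87.7 ± 2.36 CPM, and Dnajb1, a heat shock co-chaperone, 87.7 ± 2.82 against 48.2 ± 5.22 CPM. Fkbp4, the co-chaperone that Fkbp5 competes with for the receptor complex, averaged 373 ± 46.3 CPM in the Cre-labelled libraries and 313 ± 24.7 CPM in the floxed-labelled pair (edgeR adjusted p = 0.680).

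Zbtb16 had the largest difference of the 7 tested genes. It stood at 24.6 and 23.7 CPM in the Cre-labelled libraries, against 9.09 and 2.87 CPM in the floxed-labelled pair. The Cre pair was nearly equal, whereas the floxed pair differed 3.17-fold, a ratio that 7.17% of tested genes reached. The log2 fold change was 2.00 ± 0.57 (SE; edgeR adjusted p = 0.251), about 4.01-fold, and 3.6% of tested genes differed by as much in either direction. It passed an adjusted p of 0.05 in 4 of 11 other settings. These were DESeq2 (2.01, adjusted p = 0.0161, where 3.24% of genes were called higher), no filter on low genes (1.95, where 3.63% were), and either floxed library left out. The last 2 gave 3.07 without floxed replicate 1 and 1.40 without floxed replicate 2, with 17.5% and 10.4% of all genes called higher, since the spread then comes from the Cre pair alone. Zbtb16 lies on chromosome 9 from 48654297 to 48836222 on the minus strand of GRCm38, and none of its exon bases are shared with another gene.

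Fkbp5, which lowers the affinity of the receptor for glucocorticoid and is induced by it, overlapped between the groups. Its CPM was 17.4 and 19.4 in the Cre-labelled libraries, against 25.2 and 7.17 in the floxed-labelled pair. The Cre values lie between the floxed ones, which differed 3.52-fold, more than in all but 5.94% of tested genes. Its log2 fold change came to 0.18 ± 0.60 (SE; edgeR adjusted p = 0.912). It turned on the floxed library used: 1.36 without floxed replicate 1 and -0.46 without floxed replicate 2. In such runs the lone floxed library has no spread of its own. Fkbp5 lies on chromosome 17 from 28399094 to 28517527 on the minus strand.

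Tsc22d3, an anti-inflammatory mediator of glucocorticoid action, stood at 176 and 187 CPM in the Cre-labelled libraries, against 96.0 and 185 CPM in the floxed-labelled pair. Floxed replicate 2 was level with the Cre pair and floxed replicate 1 was low. Cre over floxed, the log2 difference was 0.37 ± 0.36 (SE, edgeR adjusted p = 0.671). It was -0.027 without floxed replicate 1 and 0.91 without floxed replicate 2. Ddit4, which restrains mTORC1 under stress, was also lowest in floxed replicate 1. It stood at 98.7 and 82.5 CPM in the Cre-labelled libraries, against 24.9 and 85.4 CPM in the floxed-labelled pair. The log2 fold change was 0.72 ± 0.58 (SE, edgeR adjusted p = 0.606). It was 0.087 without floxed replicate 1 and 1.86 without floxed replicate 2. With 1 floxed library left out, the other has no spread of its own. The floxed pair differed 3.43-fold for Ddit4 and 1.93-fold for Tsc22d3. Tsc22d3 lies on chromosome X from 140539528 to 140600659 and Ddit4 on chromosome 10 from 59949669 to 59951834, both on the minus strand.

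**Figure D3:**
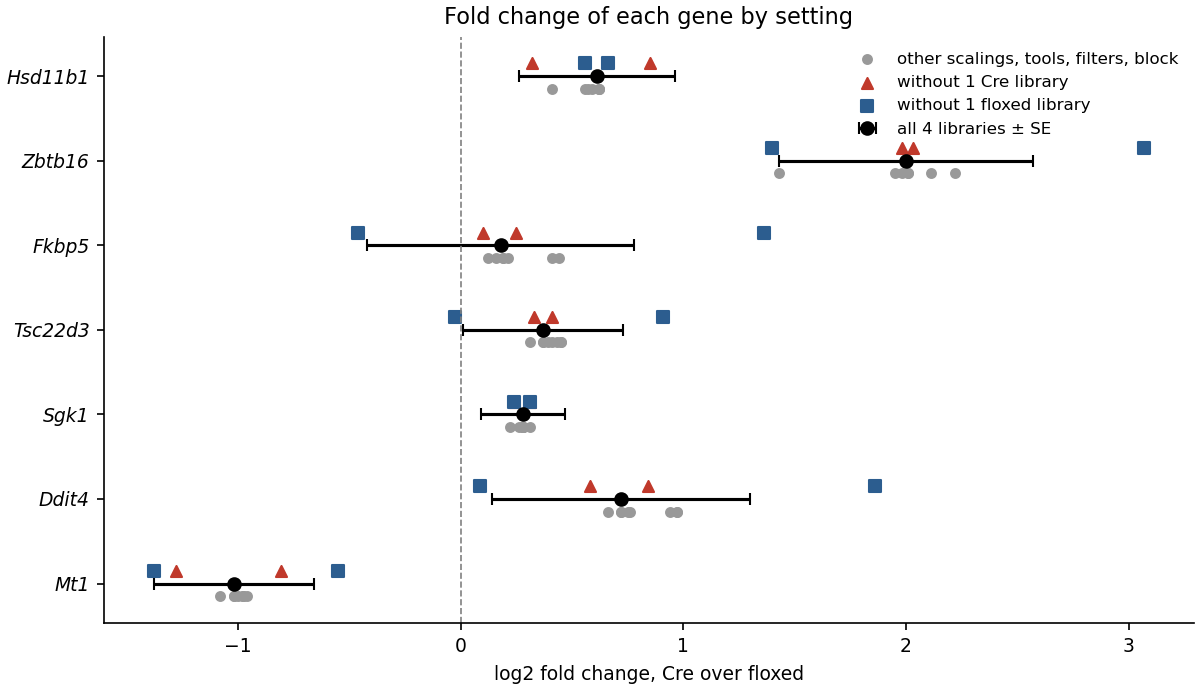
Log2 fold change of Cre over floxed for the 7 tested genes: black points with SE bars use all 4 libraries, red triangles leave out a Cre library, blue squares leave out a floxed library, and grey points are other scalings, tools, filters and the replicate block. The blue squares of Fkbp5 (1.36 and -0.46), Ddit4 and Tsc22d3 lie far apart, while those of Sgk1 (0.31 and 0.24) lie together.

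Sgk1, a kinase that regulates epithelial sodium transport and that progesterone induces in the uterus, varied least. Its CPM was 73.2 and 69.8 in the Cre-labelled libraries, against 60.1 and 57.7 in the floxed-labelled pair. Both pairs were within 1.05-fold of each other and the groups did not overlap. On the log2 scale the difference was 0.28 ± 0.19 (SE; edgeR adjusted p = 0.551) and ran from 0.22 to 0.31 over 12 other settings, in none of which it passed. Sgk1 spans 21882184 to 21999903 of chromosome 10, plus strand. Counts were given per gene, so its alternative starts were not analysed here.

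The start-site windows of these genes were read for the element that both receptors bind, because its letters are what both receptors recognise. RefSeq windows on GRCm38.p6, from 250 bases before to 50 after a start, were found for 7 of the 8 genes, 14 windows in all, with Zbtb16 not among them. The arm AGAACA was searched on both strands, together with the full palindrome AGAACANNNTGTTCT, which contains it. The arm occurred in 4 of the 14 windows, belonging to Sgk1 and Tsc22d3, and in 19.0% of 32851 windows of all genes. The full palindrome occurred in 1 of the 14, a start of Sgk1, and in 0.00913% of all windows, that is in 3 of them. The others are at Acnat2 and Gm35041. The window of Sgk1 at chr10:21993640-21993939 on the plus strand is shown with the arms in capitals, and the palindrome begins 189 bases before the start. A match is a description of the letters, and binding was not measured.
Sgk1: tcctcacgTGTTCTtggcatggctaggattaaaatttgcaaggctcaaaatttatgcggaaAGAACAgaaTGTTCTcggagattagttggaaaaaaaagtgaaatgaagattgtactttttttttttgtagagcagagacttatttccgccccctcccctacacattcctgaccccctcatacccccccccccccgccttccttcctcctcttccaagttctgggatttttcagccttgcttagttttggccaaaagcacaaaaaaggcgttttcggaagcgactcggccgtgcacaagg

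Mt1 was the 1 gene of the 7 tested whose Cre-labelled values lay below. It stood at 42.8 and 59.6 CPM in the Cre-labelled libraries, against 74.6 and 134 CPM in the floxed-labelled pair. The groups did not overlap, though each pair was uneven, with the floxed pair 1.79-fold and the Cre pair 1.39-fold apart. The log2 fold change was -1.02 ± 0.36 (SE; edgeR adjusted p = 0.313), so the floxed mean was about 2.03 times the Cre mean. It passed in 2 of 12 other settings, without floxed replicate 1 (-1.38, edgeR adjusted p = 3.61e-05, where 13.9% of genes were called lower) and with no filter on low genes (-1.08, edgeR adjusted p = 0.00816, where 3.41% were). Without floxed replicate 2 it was -0.55 (edgeR adjusted p = 0.0742). Macrophage markers, summed, stood at 750 and 770 CPM in the Cre-labelled libraries, against 1436 and 840 CPM in the floxed-labelled pair. Of 10 tested, edgeR put 5 lower and 2 higher at an unadjusted p under 0.05. Of all tested genes, 6.58% were lower and 7.3% higher. Neutrophil markers summed to 21.6 and 21.7 against 153 and 145 CPM. The part of either cell type in the level of Mt1 was not tested. Mt1 spans 94179082 to 94180327 of chromosome 8, plus strand.

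Mt2, which lies just before Mt1 on the same strand (94172664 to 94173568), was almost without counts. It had 0 and 0 counts in the Cre-labelled libraries, against 0 and 2 in the floxed-labelled pair, and Mt1 had 841 and 1035 against 1755 and 2330. A count of 0 allows up to 0.173 CPM of counted reads in these libraries. Reads that counting left unassigned are outside this bound. Mt2 did not reach the filter and was not tested in the main analysis, and no fold is given. In the annotation 432 of its 588 exon bases (73.5%) are shared with an exon of Gm45774, an antisense gene on the other strand, which leaves 156 bases of its own. Gm45774 had 1 and 0 counts in the Cre-labelled libraries, against 2 and 1 in the floxed-labelled pair. Whether strand was used in counting was not stated in the labels, and reads on such shared bases cannot be assigned to 1 gene without it. There were 36 protein-coding genes with at least 70 percent of their exon bases shared with genes of the other strand alone. Of these, 13.9% had a mean FPKM of at least 1 and 33.3% had at most 3 counts in every library. Of 11914 protein-coding genes with none shared, 68.6% and 10.3% did. Whether the sharing accounts for these percentages, or for the counts of Mt2, was not tested. Mt2 entered a test only in the setting with no filter on low genes, where it did not pass (edgeR adjusted p = 0.762).

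**Figure D4:**
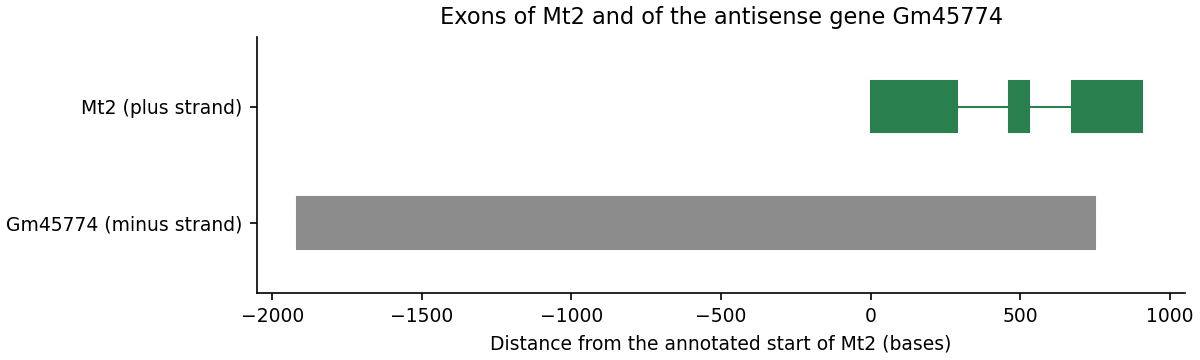
Exons of Mt2 (green) and of the antisense gene Gm45774 (grey) by distance in bases from the annotated start of Mt2. The single exon of Gm45774 covers the first and second exons of Mt2 and part of the third, 432 of 588 bases.

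The start-site windows of Mt1 and Mt2 were read for the metal response element, the site of MTF1. Both genes are metal targets, and Mt1 was the gene that lay lower. The forms TGCACNC and TGCGCNC were searched on both strands; they cannot match at the same place on the same strand. There were 3 matches at Mt1 and 4 at Mt2, some of them after the start. At least 3 were found in 1.97% of all windows and at least 4 in 0.517%. At least 1 was found in 5 of the 14 windows (35.7%), where 25.7% of all windows held one, and 6 of the 14 belong to Sgk1. The windows at chr8:94178839-94179138 and chr8:94172368-94172667, both on the plus strand, are shown with matches in capitals.
Mt1: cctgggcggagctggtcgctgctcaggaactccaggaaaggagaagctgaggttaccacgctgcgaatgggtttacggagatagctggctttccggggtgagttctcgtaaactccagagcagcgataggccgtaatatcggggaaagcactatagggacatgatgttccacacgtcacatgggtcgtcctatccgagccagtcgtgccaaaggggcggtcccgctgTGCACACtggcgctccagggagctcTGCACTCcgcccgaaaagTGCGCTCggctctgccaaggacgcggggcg
Mt2: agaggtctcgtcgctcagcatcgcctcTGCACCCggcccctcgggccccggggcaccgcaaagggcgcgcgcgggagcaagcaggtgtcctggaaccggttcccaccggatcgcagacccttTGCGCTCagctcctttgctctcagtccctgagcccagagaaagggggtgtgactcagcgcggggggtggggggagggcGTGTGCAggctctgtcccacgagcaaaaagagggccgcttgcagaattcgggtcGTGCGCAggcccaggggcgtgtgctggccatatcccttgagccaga

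Of 10 other tested genes of metal response, edgeR put 0 higher and 0 lower at p under 0.05 without adjustment. The shares of all tested genes were 7.3% and 6.58%. The median log2 fold change of the 10 was 0.046. Mtf1 itself averaged 34.5 ± 4.10 CPM in the Cre-labelled libraries and 25.4 ± 3.02 CPM in the floxed-labelled pair (SD, n = 2 each; edgeR adjusted p = 0.456). The zinc exporter Slc30a1, a standard MTF1 target, averaged 59.5 ± 10.2 against 49.4 ± 3.17 CPM (edgeR adjusted p = 0.615), and the zinc importer Slc39a4 244 ± 13.8 against 189 ± 33.7 CPM. Mt3 had 7 and 17 counts in the Cre-labelled libraries, against 4 and 3 in the floxed-labelled pair, and was not tested.

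By level per length averaged over all 4 libraries, Mt1 had a mean of 61.5 FPKM, followed by Ddit4 with 40.9, Tsc22d3 with 36.7 and Sgk1 with 13.2 FPKM. Zbtb16 with 2.84, Hsd11b1 with 2.21 and Fkbp5 with 1.83 FPKM formed a lower group. The order turned with the label: the means of Ddit4, Tsc22d3 and Mt1 were 51.3, 41.6 and 40.8 FPKM in the Cre-labelled libraries, against 30.6, 31.8 and 82.1 FPKM in the floxed-labelled pair. Among the low genes, Zbtb16 had the highest mean in the Cre-labelled libraries (4.54 FPKM) and the lowest in the floxed-labelled pair (1.14 FPKM). The ranges of Mt1 (34.0 to 103 FPKM), Ddit4 (14.5 to 55.7 FPKM) and Tsc22d3 (22.7 to 42.9 FPKM) overlapped, so their order was not beyond the spread. Sgk1 (11.3 to 14.8 FPKM) overlapped with Ddit4 alone. The 3 low genes overlapped with one another, from 0.520 to 4.61 FPKM, and none of their values reached Sgk1. The order rests on the length of all annotated exons merged, 1246 bases for Mt1, which can be longer than a single transcript.

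Other glucocorticoid targets lay in both directions. Of 38 tested, edgeR put 8 higher and 2 lower at p under 0.05 without adjustment, and 0 passed the adjusted threshold. Unadjusted, 7.3% of all tested genes were higher and 6.58% lower. The median log2 fold change of the 38 was 0.23, and 0.015 without floxed replicate 1. Errfi1, an inhibitor of EGF receptor signalling that progesterone also regulates, averaged 298 ± 5.51 CPM in the Cre-labelled libraries and 79.3 ± 17.6 CPM in the floxed-labelled pair (SD, n = 2 each; edgeR adjusted p = 0.103). Dusp1, a phosphatase that switches off MAP kinases, stood at 56.9 and 55.2 against 32.3 and 31.7 CPM. Per1, a clock repressor with a glucocorticoid response element, averaged 84.7 ± 8.09 against 41.5 ± 5.96 CPM. Klf9, a transcription factor induced by both hormones, lay the other way at 128 and 139 CPM in the Cre-labelled libraries, against 175 and 184 CPM in the floxed-labelled pair (edgeR adjusted p = 0.445). The carboxypeptidase gene Cpm had 27.8 and 29.6 CPM in the Cre-labelled libraries, against 91.4 and 115 CPM in the floxed-labelled pair (edgeR adjusted p = 0.0982).

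Other progesterone targets of the uterus had a median log2 fold change of -0.50 over 21 tested genes, and -0.073 without floxed replicate 1. Of the 21, edgeR put 2 higher and 4 lower at p under 0.05 without adjustment. Among all tested genes, 7.3% were higher and 6.58% lower. Greb1, also a target of estrogen, stood at 168 and 184 CPM in the Cre-labelled libraries, against 13.2 and 38.1 CPM in the floxed-labelled pair. Wnt4, needed for decidual change of the stroma, stood at 38.8 and 29.7 against 64.3 and 80.3 CPM. Acod1, which makes itaconate, stood at 0.305 and 0.0576 against 82.1 and 35.9 CPM. Macrophages and neutrophils express it too. The part of those cells, whose summed marker levels are given above, was not tested.

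The kinase partners of Sgk1 and the regulators of Ddit4 were read next. Of 13 tested genes of the SGK family and sodium transport, 1 was higher and 1 lower at an edgeR p under 0.05 without adjustment. The median log2 fold change of the 13 was 0.10. At that threshold, 7.3% of all tested genes were higher and 6.58% lower. Foxo1, a substrate that SGK1 inactivates, averaged 135 ± 17.5 CPM in the Cre-labelled libraries and 81.5 ± 8.17 CPM in the floxed-labelled pair (SD, n = 2 each). Scnn1b, a subunit of the epithelial sodium channel, stood at 3.21 and 2.59 against 8.46 and 16.6 CPM. Of 17 tested genes around REDD1 and mTORC1, 0 were higher and 1 lower, with a median of 0.057. The lower one was Atf3, a stress-induced transcription factor, at 7.99 and 6.62 against 27.3 and 14.8 CPM. Ddit4l, the paralog of Ddit4, averaged 95.8 ± 0.0496 CPM in the Cre-labelled libraries and stood at 36.8 and 72.6 CPM in the floxed-labelled pair, and so was also lowest in floxed replicate 1 (edgeR adjusted p = 0.399). Of 19 tested paralogs of Fkbp5, Tsc22d3 and Zbtb16, 0 were higher and 1 lower, with a median of -0.022.

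**Figure D5:**
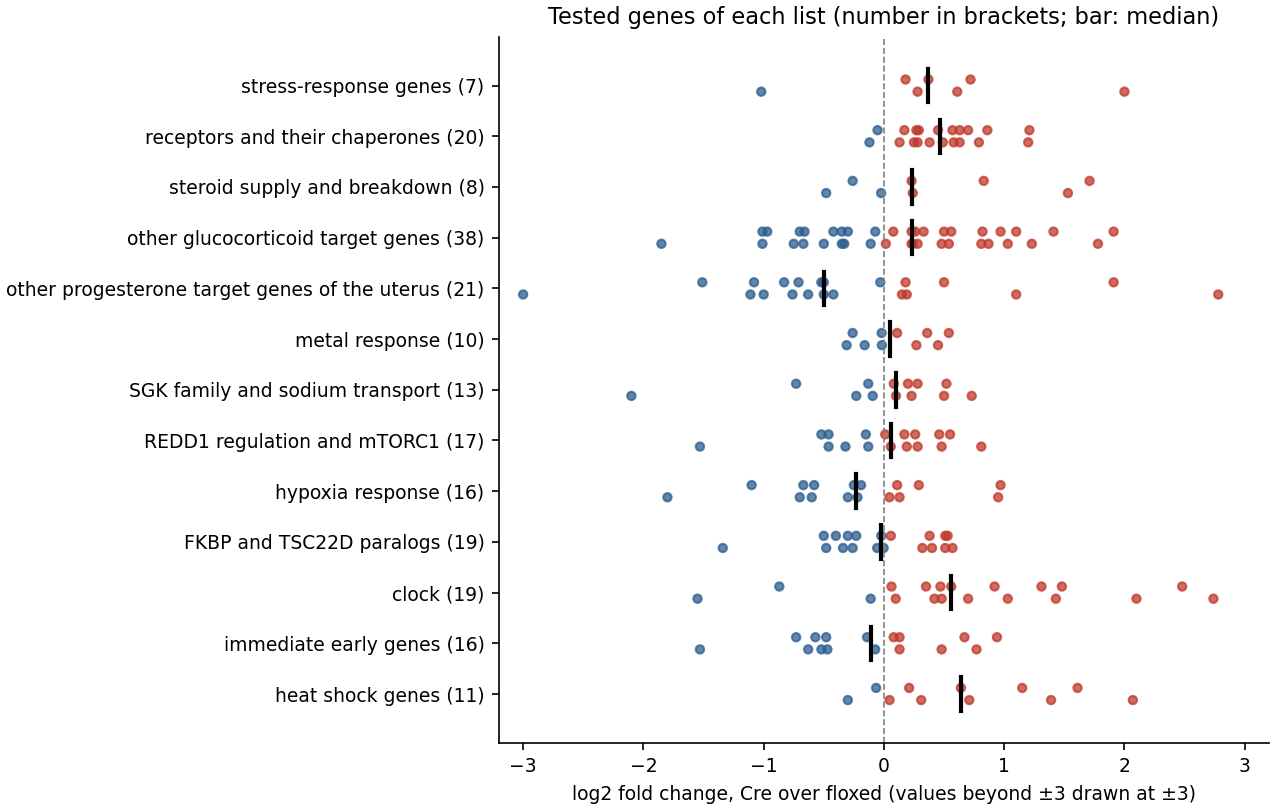
Log2 fold change of Cre over floxed for every tested gene of each list, red above 0 and blue below, with a black bar at the median of the list and values beyond the axis drawn at its edge. Medians run from -0.50 for other progesterone targets to 0.64 for heat shock genes, with 0.37 for the 7 tested stress-response genes.

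Clock genes, several of which follow the daily glucocorticoid rhythm, were among the lists with the most genes at a low p. Of 19 tested, edgeR put 10 higher and 1 lower at p under 0.05 without adjustment, where 7.3% and 6.58% of all tested genes were. The median log2 fold change of the 19 was 0.56, and 1.14 without floxed replicate 2. Per2 averaged 129 ± 12.2 CPM in the Cre-labelled libraries and 19.2 ± 1.24 CPM in the floxed-labelled pair (SD, n = 2 each), and Per3 134 ± 9.68 against 31.2 ± 11.2 CPM. Arntl, the positive arm of the clock, lay the other way at 5.83 ± 0.549 against 17.1 ± 1.79 CPM. The time of day at which tissue was taken is not given in the sources used here, and its part in the levels of the stress-response genes was not tested.

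The genes whose CPM profile over the 4 libraries was most like each stress-response gene were found by the root mean square difference of log2(CPM + 1) after centring each gene. Fstl4 was nearest to Zbtb16, at 0.025, followed by Syne1 and Pi15 at 0.12, and 1 gene lay within 0.1. Igfbp2 was nearest to Fkbp5 at 0.051, with 12 genes within 0.1, and B3gnt7 and Lrrn2 followed. Muc20, Ly6d and Fam20c were nearest to Ddit4 and Zfp939, Frk and Tprn to Tsc22d3. Amph, N4bp2l1 and Sgpp2 were nearest to Mt1, at 0.065 to 0.081. For Sgk1, whose profile was flat, 544 genes lay within 0.1, with Tsc2, Nus1 and Plek2 the nearest. Nr3c2, the mineralocorticoid receptor, was nearest to Hsd11b1 at 0.018, at 10.6 and 15.4 CPM in the Cre-labelled libraries and 8.54 and 8.31 CPM in the floxed-labelled pair; Fads3 and Ccdc173 followed. Among the 7 tested genes themselves, Sgk1 and Hsd11b1 were the closest pair at 0.24, and Zbtb16 and Mt1 the farthest apart at 1.7. With 4 libraries such likeness is a description alone.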

How the data were processed

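Each of the 4 libraries had a gene table. Per the file headers, the tables hold a read count per gene, and the authors deposited FPKM values in the next column. Tools named in the submitters' processing notes are HISAT2 and HTSeq 0.13.5, with GRCm38 as the build; whether counting used strand was not stated. Exon lengths implied by the FPKM values equalled merged exon lengths of GENCODE M21 within 0.1 percent for 98.5% of genes.

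Counts were tested with edgeR 4.0.16 (R 4.3.3) by quasi-likelihood with TMM scaling and no covariate, over the 13513 genes whose FPKM averaged 1 or more. A gene under 1 FPKM in 1 pair could enter only through the other, which held for some genes counted as higher or lower. Benjamini-Hochberg adjustment ran over all of them, tests were two-sided, and the code was checked on simulated data. Standard errors (SE) were derived from the fold change and its F statistic. Alternatives were DESeq2 1.42.0, limma 3.58.1 on log2(FPKM + 1) and log2(FPKM + 0.1), other scalings and filters, the replicate number as a block and each library left out. Floors cover counting error only, whereas SD and SE values also take in the spread between libraries.

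The 8 genes, the gene lists and the rules were chosen with earlier results of these data known. Beside the 8 genes and Smad7, the text names receptor and enzyme genes chosen for their role. It also names the tested genes of smallest p in each list (up to 4) and the 3 genes most like each stress-response gene. Mt3, Star, Hsd3b1, Cyp11a1, Ovgp1, Foxl2, Inha, Pax8, Krt14, Bnc1, Jchain, Gm45774, Acnat2 and Gm35041 were named after their values were seen. A gene that the rule names is not reported here. Promoter windows are RefSeq sequences on GRCm38.p6.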

Additional observations from a re-analysis of the deposited data

How the results depend on the processing

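The log2 fold changes of Zbtb16, Sgk1, Ddit4, Mt1 and Hsd11b1 kept their sign in every alternative run. With 1 library left out, that of Fkbp5 ran from -0.46 to 1.36, that of Tsc22d3 from -0.027 to 0.91 and that of Egln3, a hypoxia gene, from -2.60 to 0.14; they reversed in 1 setting each. Genes called higher and lower numbered 0 and 0 in the main analysis, 438 and 405 with DESeq2, 995 and 933 with no filter and 1 and 0 with a mean FPKM of at least 5; with 1 library left out they ran from 0 to 2364 and from 0 to 1885, the highest without floxed replicate 1, when the lone floxed library is assumed to vary like the Cre pair. Of the 8 genes, 1 was called higher with DESeq2, where 3.24% of all tested genes were. With no filter, 1 was called higher and 1 lower, where 3.63% and 3.41% of genes were. At an unadjusted p under 0.05, 2 were higher with no filter, 0 with a mean FPKM of at least 5 (Zbtb16 is not kept by it), and 0 to 3 higher and 0 to 1 lower with a library left out. With a library left out, the groups did not overlap for 4 to 5 genes on the Cre-high side and 1 to 2 on the Cre-low side, but 2 against 1 libraries part more genes, 31.8% to 42.8% and 32.1% to 43.2% of all tested. The cause of these shifts was not tested.

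The replicate numbers share no stated source, and deviations of same-numbered libraries correlated at -0.0829 across genes. With the replicate block, edgeR called 0 genes, and 868 higher and 657 lower without adjustment; Zbtb16 had 2.22 (adjusted p = 0.232) and Mt1 -0.98 (adjusted p = 0.292), and no call changed. Mt2 and Mt3 were tested only with no filter, on 2 and 31 counts in all, and neither passed (edgeR adjusted p = 0.762 and 0.428).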

Other observations

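Heat shock genes, which protect unfolded proteins and include chaperones of the steroid receptors, had the Cre-labelled libraries wholly above for 8 of 11 tested and wholly below for 1. Among all tested genes, 24.7% lay wholly above and 23.6% wholly below. Of the 11, edgeR put 6 higher and 0 lower at p under 0.05 without adjustment, where 7.3% and 6.58% of all were. Of these 11, 0 passed the adjusted threshold, and their median log2 fold change was 0.64. Hsph1 stood at 182 and 244 CPM in the Cre-labelled libraries, against 70.9 and 30.2 CPM in the floxed-labelled pair, and Hspa5, the chaperone of the endoplasmic reticulum, at 1014 and 1110 against 577 and 380 CPM. Hspa1a, 19.0% of whose exon bases are shared with an antisense gene, stood at 43.5 and 39.9 against 10.8 and 16.5 CPM.

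Hypoxia targets, which like Ddit4 answer to HIF, and immediate early genes, which mark acute stimulation, each had 2 of 16 tested genes at an unadjusted p under 0.05 in edgeR, near the 13.9% of all tested genes. Of 16 tested hypoxia genes in edgeR 1 was higher (P4ha1, a collagen prolyl hydroxylase) and 1 lower (Pgk1, an enzyme of glycolysis) at an unadjusted p under 0.05, with a median of -0.24, which was -0.52 without floxed replicate 1 and 0.11 without floxed replicate 2. Of 16 tested immediate early genes 1 was higher (Fosl2) and 1 lower (Atf3), with a median of -0.10.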
